A study of Mus musculus with 12 samples.

Results

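Ribosome biogenesis factors are the proteins that transcribe, modify, cut and fold ribosomal RNA and load it with ribosomal proteins. The 50 genes described here were taken from a fixed list of symbols, and each was matched to array probes that carry exactly its name. A probe was found for 49 of the 50 (no probe carried the name Nop58), and the probe of each of these 49 was well above background on all 12 arrays. The Fbl probe was saturated on all 12 arrays, so 48 genes have a fold change, out of 16113 named genes with one. RNA was measured in resting B (RB) cells, which were obtained from spleens of BALB/c mice by magnetic removal of cells with CD43, and the labels give every sample as female and 6 weeks old. All cells were cultured for 4 h, and their RNA was hybridized to one-colour Agilent expression arrays, 2 arrays a group. The groups were unstimulated cells, cells with Pam2CSK4 (a synthetic lipopeptide that engages TLR-2), cells with biotinylated anti-CD86 antibody cross-linked by streptavidin (anti-CD86), cells given both of these (TLR2.CD86), cells with anti-CD40 antibody, and cells with anti-CD40 and Pam2CSK4 together (anti-CD40+Pam2CSK4). An isotype control was not analysed here. The arrays of a group are called biological replicates, but no label says that they come from separate animals, so the p-values measure the spread between these arrays, which may be technical.

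Ribosomes are built in the nucleolus, where RNA polymerase I makes one long precursor RNA. Small nucleolar ribonucleoproteins (snoRNPs) modify it, box C/D particles by methylation and box H/ACA particles by turning uridine into pseudouridine, and assembly factors then fold and cut it into the small and the large subunit. Resting lymphocytes have small nucleoli, and enlargement of the nucleolus is a classical sign of their activation. The MYC transcription factor is known to switch on many of these genes, often through the sequence CACGTG (the E-box).

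Signals below are log2 values after each array's 75th percentile was subtracted, and fold changes are differences of these signals (log2) with their standard errors (SE). A gene was called changed at an adjusted p under 0.05 in limma. The 12 arrays lay on 2 slides. Slide 1 held both unstimulated arrays, both anti-CD40+Pam2CSK4 arrays and replicate 1 of the other 4 groups, whose replicate 2 lay on slide 2. Of the 48 factors, 37 were called lower on slide 2 (median difference -0.26) and 1 higher, against 49.7% lower and 11.5% higher among all genes. The median difference between replicates over the 48 factors was 0.0331 and 0.0310 in the groups on slide 1 alone, and 0.165 to 0.323 in the 4 split groups. Values from a fit with slide as a block are therefore given beside the results, and the comparison of anti-CD40+Pam2CSK4 with unstimulated cells does not cross slides. All 9 B cell markers were well above background on all arrays, as were 4 of 5 T cell, 3 of 4 NK cell, 8 of 8 myeloid and 4 of 4 plasma cell markers. The summed level of the B cell markers, in multiples of an array's 75th percentile, was 346 to 375 in unstimulated cells, 333 to 381 with Pam2CSK4, 322 to 352 with anti-CD86, 347 to 392 with TLR2.CD86, 367 to 432 with anti-CD40 and 450 to 505 with anti-CD40+Pam2CSK4. The T cell sum was 13.7 to 13.9 in unstimulated cells and 8.94 to 13.1 in the stimulated groups, and the NK cell sum was 6.65 to 6.83 in unstimulated cells, 4.40 to 4.74 with anti-CD40, 4.64 to 4.87 with TLR2.CD86 and 5.03 to 5.80 in the others. The plasma cell sum was also highest with anti-CD40+Pam2CSK4 (254 to 262, against 179 to 227 elsewhere), and the myeloid sum was 357 to 406 there, 346 to 374 in unstimulated cells and 288 to 348 in the other groups. The part of other cells in the results was not tested, and in bulk RNA fewer cells of a type and less RNA per cell cannot be told apart.

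CD40 ligation raised the factors most broadly when arrays were scaled on their 75th percentile, whereas 0 or 1 of the 48 were called when they were centred on the median. With anti-CD40, 24 of the 48 rose and 0 fell, against a background of 4.88% of all genes higher and 15.1% lower. The median fold change of the factors was 0.63 and that of all genes -0.17. With slide as a block 41 rose and 1 fell (background 13.5% and 30.4%). The fallen gene was Polr1d, an RNA polymerase subunit, at -0.20 (adjusted p = 0.0456) in that fit. For slide 1 alone the share of all genes called is not given, so its count is not read here. The count of 24 became 6 and 4 without unstimulated replicate 1 and 2, and 16 and 19 without anti-CD40 replicate 1 and 2.

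Against unstimulated cells, anti-CD40+Pam2CSK4 had the highest number of factors called. With anti-CD40+Pam2CSK4, 34 of the 48 factors rose and 2 (Ncl and Gar1) fell, against 7.66% of all genes higher and 13.5% lower. Ncl is counted by its brightest probe, and its direction depends on the probe. The median was 0.86 for the factors and -0.10 for all genes, and 46 of the 48 values were above 0. A slide block leaves the fold changes of this comparison as they are and changes the estimate of the spread, and 44 then rose and 2 fell (background 18.4% and 32.5%). For the arrays of slide 1 alone no share of all genes called is given, so their count is not read here. The number called was 20 without either unstimulated array and 21 without either anti-CD40+Pam2CSK4 array.

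With TLR-2 and CD86 ligation the number of factors called depended on the slide term, 0 to 3 of 48 without it and 10 to 24 with slide as a block. With Pam2CSK4 alone limma called 0 of 48 (0.112% of all genes higher and 0.0434% lower), 4 had an unadjusted p under 0.05, and the median was 0.02. With slide as a block 10 rose and 0 fell (4.25% and 8.08% of all genes). With anti-CD86 alone Rrp12 and Mybbp1a rose and 0 fell (background 0.472% and 1.64%), and the median was -0.06. The slide block gave 16 higher and 6 lower, against 10.8% and 21.1% of all genes. With TLR2.CD86 Rrp12 and Mybbp1a rose and Ddx10 fell (background 1.85% and 10.7%), the median was 0.07, and that of all genes was -0.19. In the slide block fit 23 rose and 1 fell for TLR2.CD86, against 11.0% and 29.2% of all genes. Omission of either unstimulated array left 0 called for anti-CD86 and for TLR2.CD86, either anti-CD86 array left 0 for anti-CD86, and either TLR2.CD86 array left 1.

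The height of the whole distribution depended on the scaling. Centring each array on its median, in place of its 75th percentile, moved the median of all genes to -0.35 with Pam2CSK4, -0.28 with anti-CD86, -0.48 with TLR2.CD86, -0.74 with anti-CD40 and -0.21 with anti-CD40+Pam2CSK4. The median of the factors then was -0.18, -0.20, -0.22, 0.06 and 0.75, so the sign turned with Pam2CSK4 and with TLR2.CD86. Relative to all genes the factors lay 0.17, 0.08, 0.26, 0.80 and 0.96 higher under both scalings, which differ by a constant on each array. Under median centring 0 of 48 were called with anti-CD40 and 1 with anti-CD40+Pam2CSK4, and under quantile normalization 35 and 40 were. Median centring also gave larger SEs. With anti-CD40, for example, that of Tsr1 was 0.46 in place of 0.12, and that of Nolc1 0.48 in place of 0.20. The array medians ran from 17.3 to 51.2 in intensity, and the dimmest spot well above background from 19.5 to 32.9.

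**Figure D1:**
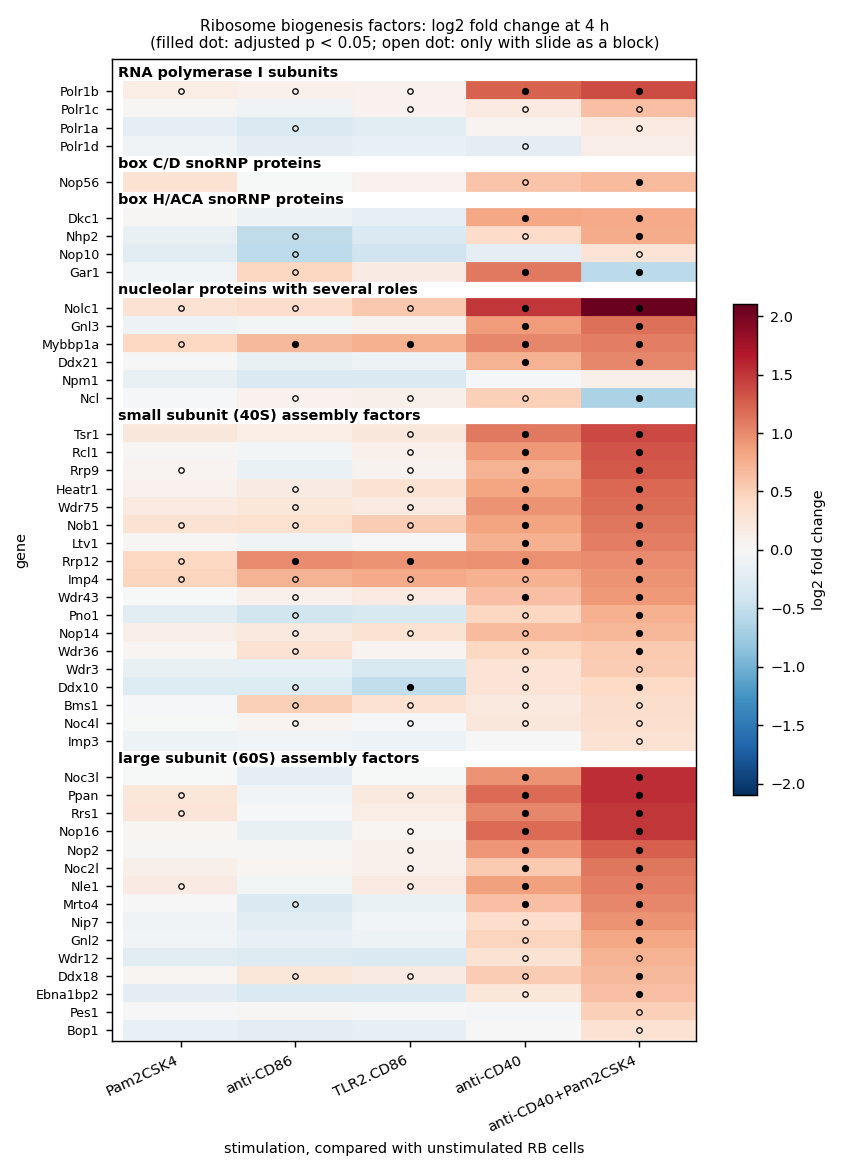
Log2 fold change against unstimulated cells of the 48 ribosome biogenesis factors (rows, by role) in the 5 stimulations (columns). Filled dots mark an adjusted p under 0.05 and open dots genes called only with slide as a block. The 2 columns with anti-CD40 hold 24 and 36 filled dots, and the other 3 columns hold 0, 2 and 3.

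RNA polymerase I makes the precursor of the ribosomal RNAs, and 4 of its subunits belong to the list of factors. Polr1b, the second largest subunit, rose, and the other 3 subunits were not called in any of the 5 comparisons with unstimulated cells unless slide was a block. Polr1b signals were -0.02 and 0.03 in unstimulated cells, 0.32 and 0.01 with Pam2CSK4, 0.24 and 0.00 with anti-CD86, 0.34 and -0.14 with TLR2.CD86, 1.45 and 1.03 with anti-CD40 and 1.36 and 1.39 with anti-CD40+Pam2CSK4. Both anti-CD40 groups thus lay above all 8 other arrays, and the 3 other stimulations overlapped the unstimulated pair. When slide was a block, Polr1b was called higher in these 3 stimulations too. Its fold changes in that fit were 0.34 for Pam2CSK4, 0.30 for anti-CD86 and 0.28 for TLR2.CD86. The adjusted p-values, in the same order, were 0.0377, 0.0285 and 0.0301. Without the block the fold change of Polr1b was 1.24 (SE 0.21, adjusted p = 0.00973) with anti-CD40 and 1.37 (SE 0.21, adjusted p = 0.004) with anti-CD40+Pam2CSK4. In Polr1a, the largest subunit, the signals were 3.70 and 3.72 in unstimulated cells, 3.58 and 3.43 with Pam2CSK4, 3.48 and 3.32 with anti-CD86, 3.56 and 3.37 with TLR2.CD86, 3.91 and 3.62 with anti-CD40 and 3.87 and 3.92 with anti-CD40+Pam2CSK4, and its fold change was 0.19 (adjusted p = 0.382) with anti-CD40+Pam2CSK4. Polr1c and Polr1d are shared with RNA polymerase III. Polr1c had a fold change of 0.63 (adjusted p = 0.0857) with anti-CD40+Pam2CSK4. In the slide block fit Polr1c rose by 0.28 (adjusted p = 0.0223) with TLR2.CD86, 0.39 (adjusted p = 0.00606) with anti-CD40 and 0.63 (adjusted p = 0.000509) with anti-CD40+Pam2CSK4. Polr1a in that fit fell with anti-CD86, -0.21 (adjusted p = 0.0431), and rose with anti-CD40+Pam2CSK4, 0.19 (adjusted p = 0.0314). For Polr1d the arrays read 4.80 and 4.79 in unstimulated cells, 4.74 and 4.69 with Pam2CSK4, 4.59 and 4.57 with anti-CD86, 4.62 and 4.62 with TLR2.CD86, 4.60 and 4.56 with anti-CD40 and 4.86 and 5.0 with anti-CD40+Pam2CSK4, a span narrower than that of Polr1b. A dimmer probe of Polr1d, annotated to another transcript, had the opposite sign with anti-CD40, 0.36 (SE 0.11, adjusted p = 0.0638), so the direction of this gene depends on the probe.

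Of the box C/D proteins, Nop56 (a core protein of the particle) has a fold change, Fbl (the methyltransferase) was saturated, and Nop58 is the gene with no probe of its name. Nop56 read 5.74 and 5.60 in unstimulated cells, 5.89 and 6.06 with Pam2CSK4, 5.59 and 5.74 with anti-CD86, 5.52 and 6.00 with TLR2.CD86, 6.16 and 6.37 with anti-CD40 and 6.35 and 6.31 with anti-CD40+Pam2CSK4. Anti-CD40 and anti-CD40+Pam2CSK4 arrays were above all the others, and replicate 2 of the 4 split groups was here the higher one. The fold change was 0.59 (SE 0.17, adjusted p = 0.0509) with anti-CD40 and 0.66 (SE 0.17, adjusted p = 0.0328) with anti-CD40+Pam2CSK4, and with slide as a block both were called (adjusted p = 0.0119 for anti-CD40).

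The box H/ACA particle consists of the pseudouridine synthase Dkc1 with Nhp2, Nop10 and Gar1, and these 4 did not move alike. Dkc1 rose by 0.81 (SE 0.12, adjusted p = 0.00691) with anti-CD40 and 0.80 (SE 0.12, adjusted p = 0.00405) with anti-CD40+Pam2CSK4. Nhp2 signals were 4.78 and 4.74 in unstimulated cells, 4.75 and 4.44 with Pam2CSK4, 4.35 and 4.11 with anti-CD86, 4.62 and 4.26 with TLR2.CD86, 5.34 and 4.98 with anti-CD40 and 5.55 and 5.53 with anti-CD40+Pam2CSK4. Both anti-CD86 arrays of Nhp2 were under the unstimulated pair, and the anti-CD40 and anti-CD40+Pam2CSK4 arrays were above it. The gene rose with anti-CD40+Pam2CSK4, 0.79 (SE 0.19, adjusted p = 0.0228), and its value with anti-CD86 was -0.53 (adjusted p = 0.146), or -0.37 (adjusted p = 0.00576) with slide as a block, where it also rose with anti-CD40, 0.57 (adjusted p = 0.000722). Nop10 gave 5.40 and 5.40 in unstimulated cells, 5.32 and 5.01 with Pam2CSK4, 4.94 and 4.78 with anti-CD86, 5.21 and 4.76 with TLR2.CD86, 5.39 and 4.99 with anti-CD40 and 5.73 and 5.65 with anti-CD40+Pam2CSK4. It was among the lowest factors in 4 of the 5 comparisons with unstimulated cells and was called in none of the 5. Its value was -0.54 (adjusted p = 0.152) for anti-CD86. For TLR2.CD86 it was -0.41 (adjusted p = 0.195), and for anti-CD40 -0.21 (adjusted p = 0.478). In the slide block fit Nop10 fell with anti-CD86, -0.38 (adjusted p = 0.0171), and rose with anti-CD40+Pam2CSK4, 0.29 (adjusted p = 0.0214).

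Gar1 rose with anti-CD40 and fell with anti-CD40+Pam2CSK4. Its single probe read 1.51 and 1.63 in unstimulated cells, 1.46 and 1.52 with Pam2CSK4, 2.00 and 2.05 with anti-CD86, 1.87 and 1.60 with TLR2.CD86, 2.75 and 2.60 with anti-CD40 and 0.99 and 1.01 with anti-CD40+Pam2CSK4. Anti-CD40 arrays were the highest of the 12 and anti-CD40+Pam2CSK4 arrays the lowest, with no overlap with any other group. The fold change against unstimulated cells was 1.10 (SE 0.12, adjusted p = 0.00247) with anti-CD40 and -0.57 (SE 0.12, adjusted p = 0.0174) with anti-CD40+Pam2CSK4. The direct comparison of anti-CD40+Pam2CSK4 with anti-CD40 gave -1.67 (SE 0.12, adjusted p = 0.000306), and -1.71 (adjusted p = 0.000259) with slide as a block. Only 1 probe carries this name, so no other probe of the gene bears on it.

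Ncl (nucleolin, an abundant nucleolar protein that binds the precursor RNA) had 4 tested probes, and they went in opposite directions with anti-CD40+Pam2CSK4. The brightest read 7.08 and 7.09 in unstimulated cells, 7.19 and 6.93 with Pam2CSK4, 7.27 and 7.08 with anti-CD86, 7.37 and 7.05 with TLR2.CD86, 7.71 and 7.46 with anti-CD40 and 6.44 and 6.40 with anti-CD40+Pam2CSK4. Its anti-CD40 arrays were the highest and its anti-CD40+Pam2CSK4 arrays the lowest, the order seen in Gar1. The second probe read 6.76 and 6.69 in unstimulated cells, 6.83 and 6.59 with Pam2CSK4, 6.92 and 6.76 with anti-CD86, 6.99 and 6.68 with TLR2.CD86, 7.39 and 7.07 with anti-CD40 and 6.00 and 6.00 with anti-CD40+Pam2CSK4, the same order. With anti-CD40+Pam2CSK4 the brightest probe fell, -0.66 (SE 0.16, adjusted p = 0.024), and so did the second, -0.73 (SE 0.16, adjusted p = 0.0175). The third probe read 2.23 and 2.30 in unstimulated cells, 2.23 and 2.02 with Pam2CSK4, 2.12 and 2.13 with anti-CD86, 2.27 and 1.94 with TLR2.CD86, 2.92 and 2.65 with anti-CD40 and 3.19 and 3.20 with anti-CD40+Pam2CSK4. The fourth and dimmest read 0.28 and 0.25 in unstimulated cells, 0.38 and 0.59 with Pam2CSK4, 0.32 and 0.62 with anti-CD86, 0.34 and 0.51 with TLR2.CD86, 1.37 and 1.46 with anti-CD40 and 1.24 and 1.21 with anti-CD40+Pam2CSK4. In these last 2 probes the anti-CD40+Pam2CSK4 arrays were above every unstimulated array. The third probe rose with anti-CD40+Pam2CSK4, 0.93 (SE 0.15, adjusted p = 0.00521), and so did the fourth, 0.96 (SE 0.14, adjusted p = 0.00317). The fold change with anti-CD40 was above 0 in all 4, with 0.51 (SE 0.16, adjusted p = 0.0629) in the brightest and 1.15 (SE 0.14, adjusted p = 0.00306) in the dimmest.

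**Figure D2:**
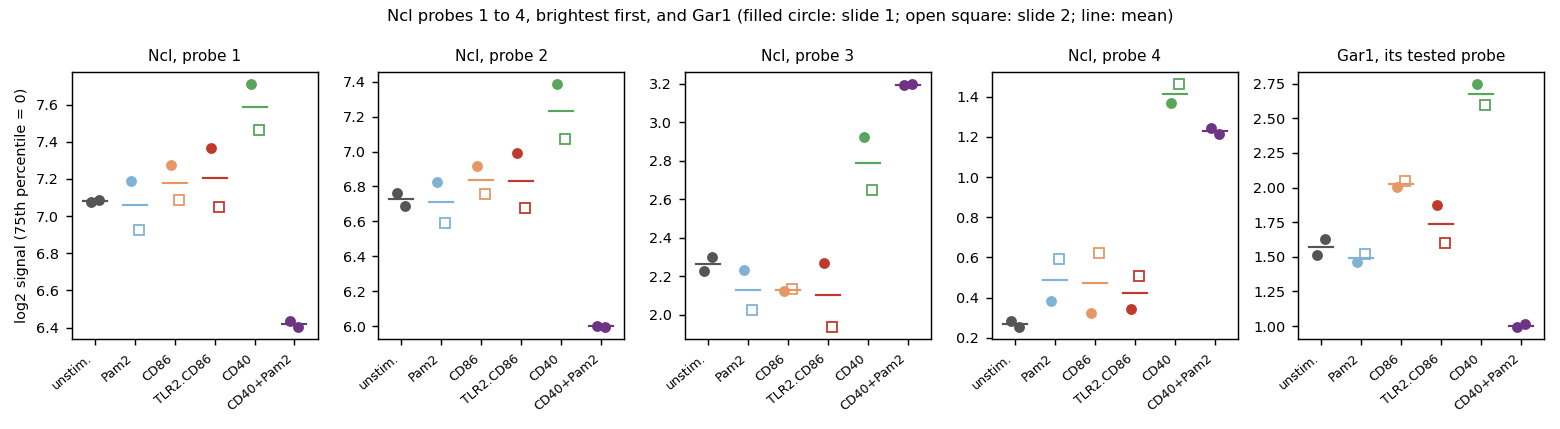
Signal (log2, 75th percentile of the array subtracted) of the 4 Ncl probes and the Gar1 probe in each of the 12 arrays. Points are arrays, by group and slide, and lines are group means. With anti-CD40+Pam2CSK4, Ncl probes 1 and 2 and Gar1 lie below unstimulated cells, and Ncl probes 3 and 4 lie above.

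The probes are shown here because the direction of Ncl depends on them. The first 30 of the 60 bases of each, as given by the array design, are printed 5′ to 3′, all in lower case.
Ncl probe 1: ctctgttcgtgcaagaatagtcactgatcg
Ncl probe 2: ttaaaagaatcatttgagggctctgttcgt
Ncl probe 3: tgttgccagacttaatacttcctagaggtt
Ncl probe 4: acttggacattaattaggaagaaactgcat
Gar1 probe: tacttagaaaacaaagagcaagtcgggaaa
Probes 1 and 2 share a run of 40 bases and are not independent readings, and every other pair of Ncl probes shares at most 7 bases in a row. Both are annotated to the Ncl transcript, as are probes 3 and 4. Which probes report the coding transcript was not tested. Of the 21 factors with several tested probes, Ncl was the 1 with a probe called the other way with anti-CD40+Pam2CSK4, and in 20 of the 21 all probes had the same sign. The same held in 19 of 21 with anti-CD40, 10 of 21 with TLR2.CD86, 11 of 21 with anti-CD86 and 16 of 21 with Pam2CSK4.

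Among the other nucleolar proteins, Nolc1 had the highest fold change of all 48 factors in both anti-CD40 groups. Nolc1 (Nopp140) is a chaperone of snoRNPs. Its signals were 3.44 and 3.46 in unstimulated cells, 3.97 and 3.56 with Pam2CSK4, 3.97 and 3.71 with anti-CD86, 4.20 and 3.84 with TLR2.CD86, 5.15 and 4.77 with anti-CD40 and 5.53 and 5.52 with anti-CD40+Pam2CSK4. Every stimulated array was above both unstimulated ones, and the anti-CD40+Pam2CSK4 pair was above the anti-CD40 pair. The fold change was 1.51 (SE 0.20, adjusted p = 0.00457) with anti-CD40 and 2.07 (SE 0.20, adjusted p = 0.000663) with anti-CD40+Pam2CSK4. With TLR2.CD86 it was 0.57 (SE 0.20, adjusted p = 0.102), and 0.75 (adjusted p = 0.000808) with slide as a block.

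Mybbp1a, a nucleolar protein that binds the transcription factor MYB, was called in 4 of the 5 stimulations. The arrays read 1.67 and 1.61 in unstimulated cells, 2.19 and 1.98 with Pam2CSK4, 2.33 and 2.32 with anti-CD86, 2.52 and 2.24 with TLR2.CD86, 2.75 and 2.57 with anti-CD40 and 2.72 and 2.71 with anti-CD40+Pam2CSK4. All 10 stimulated arrays lay above both unstimulated arrays. Under anti-CD86 it rose by 0.69 (SE 0.13, adjusted p = 0.047), and under TLR2.CD86 by 0.74 (SE 0.13, adjusted p = 0.0197). The rise was 1.02 (SE 0.13, adjusted p = 0.00446) with anti-CD40 and 1.07 (SE 0.13, adjusted p = 0.00185) with anti-CD40+Pam2CSK4. The value with Pam2CSK4 was 0.44 (adjusted p = 0.215), called with slide as a block (adjusted p = 0.0145).

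Gnl3 (nucleostemin, a nucleolar GTPase) and the helicase Ddx21 rose in both anti-CD40 groups. Gnl3 rose by 0.90 (SE 0.14, adjusted p = 0.00775) with anti-CD40 and 1.16 (SE 0.14, adjusted p = 0.00162) with anti-CD40+Pam2CSK4. Ddx21 rose by 0.72 (adjusted p = 0.00718) and 1.02 (adjusted p = 0.00105). The brightest and the second of 3 Ddx21 probes disagreed with TLR2.CD86, at -0.11 (SE 0.11, adjusted p = 0.531) and 0.75 (SE 0.19, adjusted p = 0.0446). Npm1 (nucleophosmin, an abundant nucleolar protein that shuttles to the cytoplasm) was called in none of the 5 stimulations, with or without the slide block. It read 7.58 and 7.65 in unstimulated cells, 7.56 and 7.37 with Pam2CSK4, 7.29 and 7.35 with anti-CD86, 7.27 and 7.34 with TLR2.CD86, 7.71 and 7.48 with anti-CD40 and 7.80 and 7.68 with anti-CD40+Pam2CSK4. The Pam2CSK4, anti-CD86 and TLR2.CD86 pairs lay below the unstimulated pair, at -0.15 (adjusted p = 0.537), -0.30 and -0.31 (adjusted p = 0.132). The anti-CD40+Pam2CSK4 pair lay above it, at 0.12 (SE 0.12, adjusted p = 0.567), and the Npm1 spot was saturated on 3 of the 12 arrays.

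**Figure D3:**
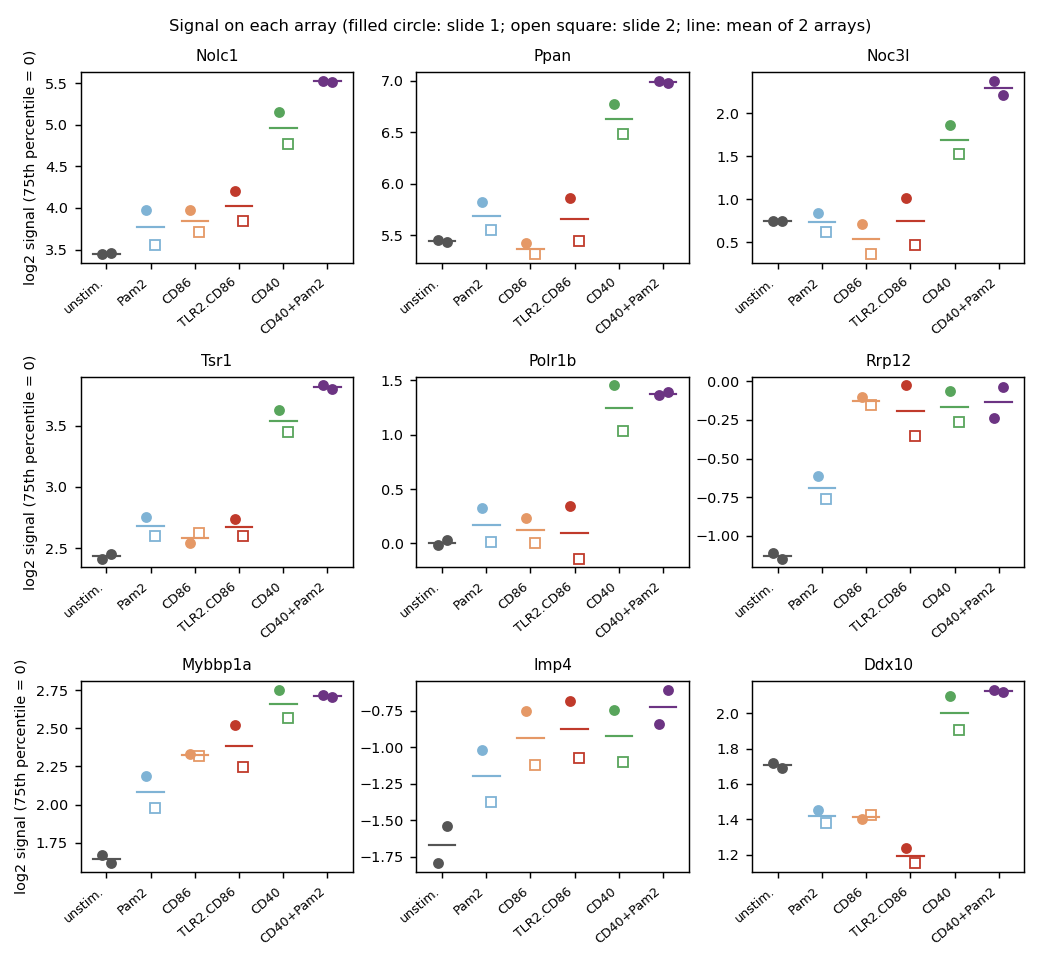
Signal (log2, 75th percentile of the array subtracted) of 9 factors on every array, by group. Filled circles are slide 1, open squares slide 2, and lines are group means. Nolc1, Ppan, Noc3l, Tsr1 and Polr1b are highest in the anti-CD40 groups, Rrp12 and Mybbp1a are called higher with anti-CD86 too, Imp4 with anti-CD86 is called only with slide as a block, and Ddx10 is lowest with TLR2.CD86.

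Small subunit assembly factors were the largest role, with 18 genes, of which 9 rose with anti-CD40 and 14 with anti-CD40+Pam2CSK4 (medians 0.70 and 0.92). The scaffold proteins of the earliest precursor, Heatr1, Wdr43 and Wdr75, rose in both, by 0.82, 0.63 and 0.94 with anti-CD40 and by 1.20, 0.90 and 1.18 with anti-CD40+Pam2CSK4. So did Rrp9, which is part of the box C/D particle that cuts the precursor (0.73 and 1.30), and Rcl1 (0.92 and 1.32). The late cytoplasmic factors Tsr1, Ltv1 and Nob1 rose as well. Tsr1, which checks the maturing subunit, rose by 1.10 (SE 0.12, adjusted p = 0.00188) and 1.38 (SE 0.12, adjusted p = 0.000337). Ltv1 rose by 0.75 (adjusted p = 0.0127) and 1.07 (adjusted p = 0.00199). Nob1, the nuclease of the last cut, rose by 0.85 (adjusted p = 0.035) and 1.12 (adjusted p = 0.0104). Nop14 and Wdr36 were called with anti-CD40+Pam2CSK4, 0.69 (adjusted p = 0.048) and 0.55 (adjusted p = 0.022). Not called in any of the 5 were Noc4l (0.36 with anti-CD40+Pam2CSK4), Imp3 (0.33), the GTPase Bms1 (0.36) and Wdr3. All 4 rose with anti-CD40+Pam2CSK4 in the slide block fit. Bms1 then rose under anti-CD86 by 0.56 (adjusted p = 0.00309), under TLR2.CD86 by 0.39 (adjusted p = 0.0058) and under anti-CD40 by 0.27 (adjusted p = 0.0189). Under anti-CD86 Noc4l rose by 0.27 (adjusted p = 0.0145), and under anti-CD40 by 0.45 (adjusted p = 0.0015). Wdr3 rose by 0.43 (adjusted p = 0.00487) under anti-CD40. Of all 18 genes the block fit called 12 higher and 1 lower with TLR2.CD86 (background 11.0% and 29.2%), and 17 higher with anti-CD40 (background 13.5%).

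Rrp12, a factor of subunit export from the nucleus, was called higher in all 4 stimulations that held anti-CD86 or anti-CD40. Its signals were -1.11 and -1.15 in unstimulated cells, -0.62 and -0.76 with Pam2CSK4, -0.10 and -0.16 with anti-CD86, -0.03 and -0.36 with TLR2.CD86, -0.06 and -0.26 with anti-CD40 and -0.24 and -0.04 with anti-CD40+Pam2CSK4. The 8 arrays with anti-CD86 or anti-CD40, alone or with Pam2CSK4, overlapped one another and lay above the Pam2CSK4 and unstimulated arrays. Anti-CD86 gave a fold change of 1.00 (SE 0.15, adjusted p = 0.0268) and TLR2.CD86 one of 0.94 (SE 0.15, adjusted p = 0.0142). The value with anti-CD40 was 0.97 (SE 0.15, adjusted p = 0.00708), and with anti-CD40+Pam2CSK4 0.99 (SE 0.15, adjusted p = 0.00359). With Pam2CSK4 Rrp12 was 0.44 (SE 0.15, adjusted p = 0.24), and it was called higher there with slide as a block, 0.53 (adjusted p = 0.024). Imp4, a protein of the early small subunit precursor, had fewer calls. It read -1.79 and -1.54 in unstimulated cells, -1.02 and -1.38 with Pam2CSK4, -0.75 and -1.12 with anti-CD86, -0.68 and -1.07 with TLR2.CD86, -0.74 and -1.10 with anti-CD40 and -0.84 and -0.61 with anti-CD40+Pam2CSK4, and all 10 stimulated arrays were above both unstimulated ones. It rose with anti-CD40+Pam2CSK4, 0.94 (SE 0.22, adjusted p = 0.0227). Pam2CSK4 replicate 1 lay within the range of the anti-CD86 and anti-CD40 arrays. Anti-CD86 gave 0.73 (adjusted p = 0.109) and TLR2.CD86 gave 0.79 (adjusted p = 0.0584). In the slide block fit it rose with all 5 stimulations, under Pam2CSK4 by 0.66 (adjusted p = 0.0217), under anti-CD86 by 0.92 (adjusted p = 0.00336) and under TLR2.CD86 by 0.97 (adjusted p = 0.00181).

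The RNA helicase Ddx10 was the 1 factor called lower with TLR2.CD86. Its arrays read 1.72 and 1.69 in unstimulated cells, 1.45 and 1.38 with Pam2CSK4, 1.40 and 1.43 with anti-CD86, 1.24 and 1.15 with TLR2.CD86, 2.10 and 1.91 with anti-CD40 and 2.13 and 2.12 with anti-CD40+Pam2CSK4. All 6 arrays with Pam2CSK4 or anti-CD86 but no anti-CD40 lay below the unstimulated pair, and all 4 anti-CD40 arrays lay above it. The fold change was -0.51 (SE 0.11, adjusted p = 0.0276) with TLR2.CD86 and 0.42 (SE 0.11, adjusted p = 0.0294) with anti-CD40+Pam2CSK4. A dimmer Ddx10 probe differed in sign with TLR2.CD86, 0.45 (SE 0.19, adjusted p = 0.163), and agreed in sign with anti-CD40+Pam2CSK4, 1.00 (SE 0.19, adjusted p = 0.0102). The fall with TLR2.CD86 thus rests on 1 of 2 probes.

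Pno1 (a late small subunit factor that works with Nob1) and Wdr3 had their lowest values without CD40 ligation. Pno1 signals were 4.50 and 4.54 in unstimulated cells, 4.42 and 4.15 with Pam2CSK4, 4.18 and 4.07 with anti-CD86, 4.35 and 4.02 with TLR2.CD86, 5.13 and 4.82 with anti-CD40 and 5.26 and 5.29 with anti-CD40+Pam2CSK4. All 6 arrays with Pam2CSK4 or anti-CD86 alone or combined were below the unstimulated pair, and the anti-CD40 and anti-CD40+Pam2CSK4 arrays were above it. Pno1 rose with anti-CD40+Pam2CSK4, 0.75 (SE 0.16, adjusted p = 0.0163), and with anti-CD86 its value was -0.39 (adjusted p = 0.197). When slide was a block it fell with anti-CD86, -0.27 (adjusted p = 0.0322), and rose with anti-CD40, 0.59 (adjusted p = 0.00133). Wdr3 gave 3.83 and 3.84 in unstimulated cells, 3.84 and 3.54 with Pam2CSK4, 3.75 and 3.58 with anti-CD86, 3.67 and 3.34 with TLR2.CD86, 4.30 and 3.95 with anti-CD40 and 4.30 and 4.43 with anti-CD40+Pam2CSK4. Its lowest value against unstimulated cells was with TLR2.CD86, -0.34 (adjusted p = 0.237), and its highest with anti-CD40+Pam2CSK4, 0.53 (adjusted p = 0.0762).

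Of the 15 large subunit assembly factors, 8 rose with anti-CD40 and 12 with anti-CD40+Pam2CSK4 (medians 0.56 and 1.02), and 0 were called with Pam2CSK4, anti-CD86 or TLR2.CD86. The slide block fit called 3, 2 and 6 of them with those stimulations, 13 with anti-CD40 and 15 with anti-CD40+Pam2CSK4. All of these calls were higher except Mrto4, which was lower with anti-CD86. In that fit 4.25%, 10.8%, 11.0%, 13.5% and 18.4% of all genes were higher with the stimulations in this order. The shares lower were 8.08%, 21.1%, 29.2%, 30.4% and 32.5%, and the 2 calls with anti-CD86 are not above that background. Ppan, a factor of early large subunit processing, read 5.45 and 5.43 in unstimulated cells, 5.83 and 5.55 with Pam2CSK4, 5.42 and 5.32 with anti-CD86, 5.87 and 5.44 with TLR2.CD86, 6.78 and 6.48 with anti-CD40 and 7.0 and 6.97 with anti-CD40+Pam2CSK4. Both anti-CD40 groups stood clear of the other 8 arrays. Its fold change was 1.19 (SE 0.17, adjusted p = 0.00623) with anti-CD40 and 1.54 (SE 0.17, adjusted p = 0.00122) with anti-CD40+Pam2CSK4. Noc3l, which accompanies the precursor in the nucleus, read 0.75 and 0.74 in unstimulated cells, 0.84 and 0.62 with Pam2CSK4, 0.71 and 0.36 with anti-CD86, 1.01 and 0.47 with TLR2.CD86, 1.86 and 1.52 with anti-CD40 and 2.38 and 2.21 with anti-CD40+Pam2CSK4. It rose by 0.95 (SE 0.21, adjusted p = 0.0245) and 1.55 (SE 0.21, adjusted p = 0.00271), with no overlap between the anti-CD40 groups and the rest. Nop16 read 2.69 and 2.75 in unstimulated cells, 2.95 and 2.58 with Pam2CSK4, 2.77 and 2.35 with anti-CD86, 3.03 and 2.48 with TLR2.CD86, 4.23 and 3.59 with anti-CD40 and 4.22 and 4.20 with anti-CD40+Pam2CSK4. The pair of anti-CD40 arrays was further apart than the anti-CD40+Pam2CSK4 or the unstimulated pair, and the fold change was 1.19 (SE 0.27, adjusted p = 0.0239) and 1.50 (SE 0.27, adjusted p = 0.00759).

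Rrs1, which helps to load the small ribosomal RNA of the large subunit, rose by 1.02 (SE 0.11, adjusted p = 0.00198) with anti-CD40 and 1.50 (SE 0.11, adjusted p = 0.000171) with anti-CD40+Pam2CSK4. The RNA methyltransferase Nop2 (0.93 and 1.26), Noc2l (0.56 and 1.12), Mrto4 (0.62 and 1.02) and Nle1 (0.86 and 1.08) also rose in both. The 3 brightest Mrto4 probes are annotated to predicted transcripts, and the probe of the curated one gave 1.08 (SE 0.15, adjusted p = 0.00267) with anti-CD40+Pam2CSK4. The helicase Ddx18, the GTPase Gnl2, Nip7 and Ebna1bp2 were called with anti-CD40+Pam2CSK4, at 0.68, 0.82, 0.95 and 0.62. Their values with anti-CD40 were 0.53, 0.47, 0.38 and 0.26, none of them called. When slide was a block all 4 rose with anti-CD40, by 0.66 (adjusted p = 0.00225), 0.57 (adjusted p = 0.00114), 0.52 (adjusted p = 0.00106) and 0.39 (adjusted p = 0.00362), and Ddx18 was also called with anti-CD86 and TLR2.CD86.

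Pes1, Bop1 and Wdr12 form one complex (PeBoW) of large subunit maturation and were the 3 large subunit factors not called in any of these comparisons without the slide block. Pes1 gave 5.62 and 5.59 in unstimulated cells, 5.76 and 5.47 with Pam2CSK4, 5.73 and 5.52 with anti-CD86, 5.79 and 5.43 with TLR2.CD86, 5.75 and 5.38 with anti-CD40 and 6.11 and 6.11 with anti-CD40+Pam2CSK4. Its anti-CD40 arrays fell on either side of the unstimulated pair, with a fold change of -0.04 (adjusted p = 0.898), and its anti-CD40+Pam2CSK4 arrays were above all others, 0.50 (SE 0.18, adjusted p = 0.0925). A dimmer Pes1 probe rose in both, 0.84 (SE 0.13, adjusted p = 0.00779) and 1.08 (SE 0.13, adjusted p = 0.00163). Wdr12 gave 2.25 and 2.20 in unstimulated cells, 2.23 and 1.75 with Pam2CSK4, 2.15 and 1.75 with anti-CD86, 2.12 and 1.67 with TLR2.CD86, 2.81 and 2.23 with anti-CD40 and 2.96 and 2.95 with anti-CD40+Pam2CSK4. With anti-CD40+Pam2CSK4 it differed by 0.73 (SE 0.26, adjusted p = 0.0905), and with slide as a block it rose (adjusted p = 0.000201), as did Pes1 (adjusted p = 0.000722). Wdr12 also rose with anti-CD40 in that fit, 0.54 (adjusted p = 0.00133). Bop1 had 0.32 (adjusted p = 0.401) with anti-CD40+Pam2CSK4, and 0.32 (adjusted p = 0.0199) with slide as a block.

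Anti-CD40 was compared directly with the other single signals, as each of these pairs is balanced over the slides. Against anti-CD86, 22 of 48 factors were higher with anti-CD40 and 0 lower (background 4.79% and 5.56%), and the median difference was 0.59. On slide 2 alone the median was 0.53. Nop16 differed by 1.35 (SE 0.27, adjusted p = 0.0191), Ppan by 1.26 (SE 0.17, adjusted p = 0.00462), Nolc1 by 1.12 (SE 0.20, adjusted p = 0.0129) and Rrp12 by -0.04 (SE 0.15, adjusted p = 0.916). Against Pam2CSK4, 16 were higher and 0 lower (background 2.9% and 1.89%), with a median of 0.55 and, on slide 2 alone, 0.53. Nolc1 differed by 1.19 (SE 0.20, adjusted p = 0.0194) and Gar1 by 1.18 (SE 0.12, adjusted p = 0.00511). The number against anti-CD86 was 11 and 7 without anti-CD86 replicate 1 and 2, and 13 without anti-CD40 replicate 1. Against Pam2CSK4 it was 4 and 1 without Pam2CSK4 replicate 1 and 2, and 6 without anti-CD40 replicate 1. With slide as a block 39 were higher in each, and 1 was lower against anti-CD86. No share of all genes in that fit is given for these 2 comparisons, so its counts have no background here. Both comparisons share the anti-CD40 arrays, and both were added after the data had been seen.

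Addition of a second signal to a first was tested next. For TLR2.CD86 against Pam2CSK4 limma called 0 of 48 (background 0.031% in either direction, 2 with an unadjusted p under 0.05, and 4 with slide as a block), and against anti-CD86 it also called 0 (background 0.205%, 0 with an unadjusted p under 0.05, and 2 with slide as a block). The medians were -0.01 and 0.07. For anti-CD40+Pam2CSK4 against Pam2CSK4, 29 were higher and 2 lower (background 6.77% and 4.14%), with a median of 0.86. The number called there was 12 without either anti-CD40+Pam2CSK4 array and 13 without Pam2CSK4 replicate 2. Against anti-CD40 alone, 0 were higher and 2 lower, Gar1 and, by its brightest probe, Ncl (background 1.02% and 1.67%). In that comparison 17 of 48 had an unadjusted p under 0.05, 45 were above 0 and the median was 0.30, and with slide as a block 14 were higher and 2 lower with a median of 0.18. Without either anti-CD40+Pam2CSK4 array 1 was called. For the slide block counts of these comparisons the share of all genes called is not given, so nothing is read from those counts. The brightest Ncl probe differed by -1.17 (SE 0.16, adjusted p = 0.00837). On both anti-CD40+Pam2CSK4 arrays the third Ncl probe read higher than on the anti-CD40 arrays, and the fourth read lower.

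Departure from additive effects on the log2 scale was called for 1 factor, and for 5 with slide as a block. The term for CD86 and TLR-2 was called in 0 of 48 (background 0.00621%, 1 with an unadjusted p under 0.05, and 0 with slide as a block). The term for CD40 and TLR-2 was called in 1, Gar1 (background 0.887%), at -1.59 (SE 0.18, adjusted p = 0.00577), and in the slide block fit at -1.67 (adjusted p = 0.00338). For the brightest Ncl probe this term was -1.14 (SE 0.22, adjusted p = 0.0649), and -1.40 (adjusted p = 0.000625) with slide as a block. In that fit Mybbp1a at -0.56 (adjusted p = 0.0352), Polr1d at 0.41 (adjusted p = 0.0494) and Nip7 at 0.38 (adjusted p = 0.0469) were called as well. How many of all genes that fit called for this term is not given, so the 5 have no background here.

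The 2 combined stimulations were compared with each other. TLR2.CD86 gave lower signals than anti-CD40+Pam2CSK4 for 29 of 48 factors and higher ones for 2 (background 8.79% lower and 4.82% higher), with a median of -0.91, or -0.76 with slide as a block. Noc3l differed by -1.56 (SE 0.21, adjusted p = 0.00427) and Nolc1 by -1.50 (SE 0.20, adjusted p = 0.00384). Rrp12, at -0.06 (SE 0.15, adjusted p = 0.831), and Bms1, at -0.04 (SE 0.12, adjusted p = 0.851), had the smallest differences among those named. The 2 higher genes were Gar1, 0.73 (SE 0.12, adjusted p = 0.00914), and Ncl by its brightest probe, 0.79 (SE 0.16, adjusted p = 0.0172). The 2 dimmer Ncl probes went the other way, with lower signals on the TLR2.CD86 arrays than on the anti-CD40+Pam2CSK4 arrays. The number called was 14 and 16 without anti-CD40+Pam2CSK4 replicate 2 and 1.

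The other genes of the pathway were taken from lists of 121 further factors, of which 114 had a fold change. With anti-CD40, 21 rose and 2 fell (median 0.26), and with anti-CD40+Pam2CSK4, 52 rose and 2 fell (median 0.49), beside medians of -0.17 and -0.10 over all genes. With TLR2.CD86, 3 rose and 5 fell, with Pam2CSK4 0 were called, and with anti-CD86 1 rose and 1 fell. The share of all genes called, given above, was 1.85% higher and 10.7% lower for TLR2.CD86, 4.88% and 15.1% for anti-CD40, and 7.66% and 13.5% for anti-CD40+Pam2CSK4, against which 5 of 114 lower with TLR2.CD86 and 2 of 14 lower among the exosome genes with anti-CD40 are not above the background. In the block fit 70 rose and 4 fell with anti-CD40 (background in that fit 13.5% and 30.4%). With anti-CD40+Pam2CSK4 78 rose and 9 fell there (background 18.4% and 32.5%), and neither count of fallen genes is above its background. Further small subunit factors (37 genes) rose in 8 with anti-CD40 and 22 with anti-CD40+Pam2CSK4, and 0 fell. Of 39 further large subunit factors, 12 and 18 rose, and 1 fell with anti-CD40+Pam2CSK4. The next list held RNA polymerase I transcription factors together with further subunits of that enzyme. Of its 15 genes 1 and 3 rose, and with TLR2.CD86 3 of them fell. Of 14 exosome and other RNA trimming genes, 0 were higher and 2 lower with anti-CD40, and 6 were higher and 1 lower with anti-CD40+Pam2CSK4. Neither count of lower genes is above the share of all genes (15.1% and 13.5%). Of 9 snoRNP assembly genes, 3 rose with anti-CD40+Pam2CSK4 and 0 with the other stimulations.

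Proteins of the ribosome itself and other genes of translation are set beside the factors that build it, with no test between the lists. Of 26 cytosolic ribosomal proteins 0 were called with anti-CD40 (median -0.14) and 0 with anti-CD40+Pam2CSK4 (median 0.18). Of 75 mitochondrial ribosomal proteins, 2 rose and 16 fell with anti-CD40 (median -0.33), 6 rose and 6 fell with anti-CD40+Pam2CSK4 (median -0.10), and 14 fell with TLR2.CD86 (median -0.36). With 15.1% of all genes lower with anti-CD40, 7.66% higher and 13.5% lower with anti-CD40+Pam2CSK4 and 10.7% lower with TLR2.CD86, these counts are a description, and nothing is read from them. The aminoacyl-tRNA synthetases, which charge transfer RNAs for translation, gave 0 of 20 with anti-CD40 and 3 higher and 1 lower with anti-CD40+Pam2CSK4.

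**Figure D4:**
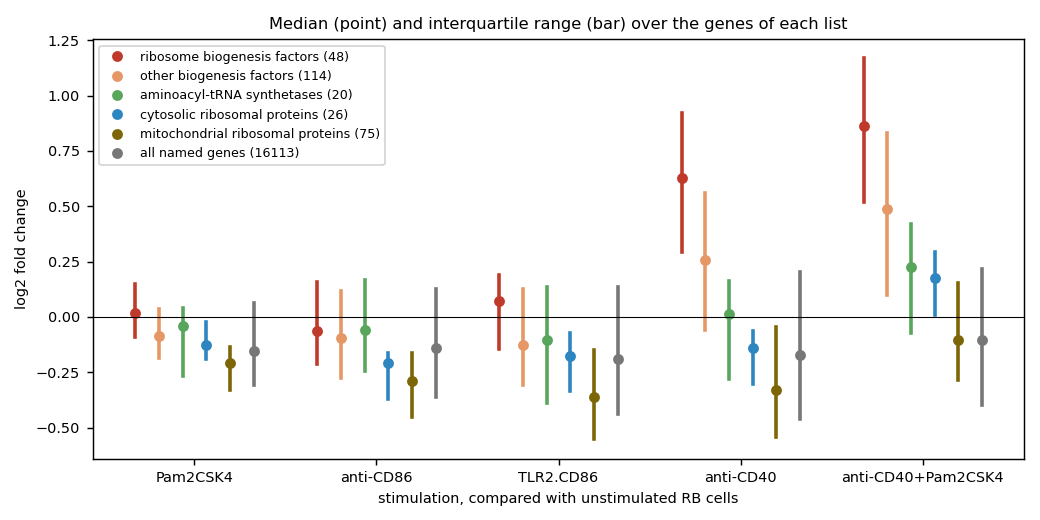
Median (point) and interquartile range (bar) of the log2 fold change against unstimulated cells for the 48 factors, 4 other gene lists and all named genes in the 5 stimulations. With anti-CD40 and anti-CD40+Pam2CSK4 the factors have medians of 0.63 and 0.86, and the mitochondrial ribosomal proteins have -0.33 and -0.10.

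Myc, a known regulator of these genes, was measured on the same arrays. Its signals were 4.95 and 5.03 in unstimulated cells, 5.96 and 5.68 with Pam2CSK4, 4.72 and 4.56 with anti-CD86, 5.64 and 5.28 with TLR2.CD86, 6.78 and 6.39 with anti-CD40 and 7.28 and 7.27 with anti-CD40+Pam2CSK4. All 4 anti-CD40 arrays were the highest, and the anti-CD86 arrays lay below the unstimulated pair. Myc rose by 1.60 (SE 0.18, adjusted p = 0.00247) with anti-CD40 and 2.29 (SE 0.18, adjusted p = 0.000244) with anti-CD40+Pam2CSK4, and its value was 0.83 (SE 0.18, adjusted p = 0.126) with Pam2CSK4 and 0.47 (SE 0.18, adjusted p = 0.122) with TLR2.CD86. The slide block made calls of both of the latter (adjusted p = 0.00287 and 0.00182). Whether Myc accounts for the factors was not tested.

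Promoters are shown because the members that moved together can be set against the E-box CACGTG, which reads the same on both strands. RefSeq promoter windows (build GRCm38.p6, 250 bases before to 50 after each gene's start) were at hand for 43 of the 50 genes, in 46 windows. CACGTG was in 9 of these windows (19.57%), and in 2349 of 32851 windows of all genes (7.15%). The 30 bases around it are printed 5′ to 3′ on the strand of the gene, with the E-box in capitals.
Imp4, chr1:34439696-34439725, plus strand: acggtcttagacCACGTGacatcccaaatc
Ltv1, chr10:13193092-13193121, minus strand: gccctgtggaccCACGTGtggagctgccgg
Mybbp1a, chr11:72441347-72441376, plus strand: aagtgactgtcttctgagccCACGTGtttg
Nle1, chr11:82908355-82908384, minus strand: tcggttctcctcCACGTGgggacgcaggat
Nop2, chr6:125131811-125131840, plus strand: gtgtccctggatCACGTGtgttccggtgcc
Pes1, chr11:3963965-3963994, plus strand: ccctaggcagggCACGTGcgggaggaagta
Pno1, chr11:17211540-17211569, minus strand: tgcgctgtacaaccacgCACGTGttcctct
Tsr1, chr11:74898092-74898121, plus strand: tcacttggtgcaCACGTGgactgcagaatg
Wdr43, chr17:71616220-71616249, plus strand: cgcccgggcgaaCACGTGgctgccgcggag
In Imp4 and Nop2 the E-box lay before the start of the gene, and in the other 7 after it. Of these 9 genes Ltv1, Mybbp1a, Nle1, Nop2, Tsr1 and Wdr43 were called with anti-CD40, and Imp4 and Pno1 were called in addition with anti-CD40+Pam2CSK4. Many of the factors as a whole were called with these stimulations too, at the counts given above. Whether a match goes with a response was not tested. Nolc1, Ppan and Noc3l, the 3 factors with the highest fold change with anti-CD40+Pam2CSK4, are not among the 9, and a match or its lack is a description of these letters in these windows.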

How the data were processed

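The data were 12 one-colour arrays of RB cells in 6 groups, 2 arrays each. The authors labelled amplified RNA with Cy3, hybridized it to a custom Agilent array, and deposited the spot intensity of each array (Agilent Feature Extraction, background subtracted) and a log2 table, which equals log2 of the same processed signal minus a constant per array near its 75th percentile. For the present values, control and outlier spots were left out, spots of one probe were averaged, log2 of the processed intensity was taken and each array's 75th percentile subtracted. Of 61307 probes on the array, 31669 passed the background flag in at least 1 whole group, 68 of these lacked a value on some array, and 31601 were tested. On each array 46.6% to 60.6% of the probes were well above background, and the number of arrays limits the precision. limma 3.58.1 (R 4.3.3; Python 3.11.15 for the tables) was fitted with 1 coefficient per group and eBayes, all 12 arrays sharing one estimate of the spread, and p-values were Benjamini-Hochberg adjusted over all tested probes. The fit was tested on simulated data. The authors named a one-way analysis of variance with no covariate. A gene was given by its brightest tested probe, and genes saturated on all 12 arrays were left out of counts, a rule added after the data were seen. Array values are given for the members highest and lowest within each role for TLR2.CD86, and for the 3 highest and 3 lowest of each stimulation, as ranked by fold change. The members and gene lists were chosen with earlier results of these data known. Alternatives tried were normexp background correction, median and quantile normalization, no filter on dim probes, the authors' deposited log2 table, saturated probes left out, the median over a gene's probes, slide and replicate number as blocks, slide 1 alone, and each array left out in turn. Gene names are those of the array design.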

Additional observations from a re-analysis of the deposited data

Results flagged for a closer look

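Gar1, the H/ACA protein with 1 probe, was singled out because the effect of anti-CD40 differed with and without Pam2CSK4 by a test of that difference. The effect of both signals minus the sum of both single effects was -1.59 (SE 0.18, adjusted p = 0.00577) on the log2 scale, or -1.588 to 3 decimals. Both anti-CD40 arrays lay above, and both anti-CD40+Pam2CSK4 arrays below, both unstimulated arrays. With slide as a block the term was -1.67 (adjusted p = 0.00338), on slide 1 alone -1.64 (adjusted p = 0.0733) and with median centring -0.93 (adjusted p = 0.367). Over the alternatives that gave a value its size ran from -1.71 to -0.93. Groups of 2 arrays allow no search for a single outlying array.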

How the results depend on the processing

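The number of the 48 factors called depended on the scaling and on the slide term, and the cause was not tested. With median centring it was 0 for anti-CD86, TLR2.CD86 and anti-CD40 against unstimulated cells, 1 for anti-CD40+Pam2CSK4 against unstimulated cells and against Pam2CSK4, and 0 for anti-CD40+Pam2CSK4 against anti-CD40, TLR2.CD86 against anti-CD40+Pam2CSK4, the term for CD40 and TLR-2, and anti-CD40 against Pam2CSK4 or anti-CD86. With no filter on dim probes, where more probes enter the adjustment, it was 0 for anti-CD86, 0 for TLR2.CD86, 11 for anti-CD40, 15 for anti-CD40+Pam2CSK4 against Pam2CSK4, and 1 and 9 for anti-CD40 against Pam2CSK4 and anti-CD86. Quantile normalization gave 4 for anti-CD86, 7 for TLR2.CD86, 2 for the term for CD40 and TLR-2 and 31 for anti-CD40 against Pam2CSK4, and normexp gave 2 for that term. With slide as a block it was 10 for Pam2CSK4, 22 for anti-CD86, 24 for TLR2.CD86, 42 for anti-CD40, 4 and 2 for TLR2.CD86 against Pam2CSK4 and anti-CD86, 16 for anti-CD40+Pam2CSK4 against anti-CD40, 5 for the term for CD40 and TLR-2, and 39 and 40 for anti-CD40 against Pam2CSK4 and anti-CD86. On slide 1 alone, where split groups have 1 array that is assumed to vary like the others, it was 0 for anti-CD86, 12 for TLR2.CD86, 39 for anti-CD40, 0 for the term for CD40 and TLR-2 and 0 for anti-CD40 against Pam2CSK4. The share of all genes called on slide 1 alone is not given, so nothing is read from the counts of that fit. For anti-CD40+Pam2CSK4 against anti-CD40 the number called was 1 with saturated probes left out and 1 with the median over a gene's probes. Replicate numbers were correlated among the 4 split groups (0.54 to 0.67), whose replicates lie on different slides, and not with the other groups (-0.11 to 0.07). In the split groups the replicate number is also the slide, so a pairing of the samples cannot be told apart from the slide. With the replicate number as a block the count was 6 for anti-CD86, 5 for TLR2.CD86 and 7 for anti-CD40+Pam2CSK4 against anti-CD40. It was 2 for the term for CD40 and TLR-2 and 29 for anti-CD40 against Pam2CSK4. With 1 array left out it ran from 0 to 0 for Pam2CSK4 and for anti-CD86, 0 to 1 for TLR2.CD86, 4 to 19 for anti-CD40, 20 to 21 for anti-CD40+Pam2CSK4, 0 to 0 for TLR2.CD86 against either single signal, 12 to 26 for anti-CD40+Pam2CSK4 against Pam2CSK4, 1 to 2 against anti-CD40, 14 to 31 for TLR2.CD86 against anti-CD40+Pam2CSK4, 1 to 1 for the term for CD40 and TLR-2, 1 to 16 for anti-CD40 against Pam2CSK4 and 7 to 24 against anti-CD86. Among fold changes called in either of the fits compared, 2 turned in sign: Noc4l with TLR2.CD86 was -0.03 and with slide as a block 0.18 (adjusted p = 0.0451), and Noc2l with anti-CD40 was 0.56 and with median centring -0.010 (adjusted p = 0.99). The authors' deposited log2 table changed no count by over 1.5 times.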

Other observations

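The partners of Myc were measured beside the ribosome biogenesis factors. Of 9 genes of the network with a fold change, 1 (Myc) rose and 3 fell with anti-CD40, where 4.88% of all genes were called higher and 15.1% lower. Mxd4 and Mnt, which pair with Max and oppose Myc, fell, with log2 fold changes of -0.83 (SE 0.18, adjusted p = 0.0217) and -0.71 (SE 0.18, adjusted p = 0.0339), as did Mycl1, a relative of Myc, at -0.78 (SE 0.21, adjusted p = 0.0425). With anti-CD40+Pam2CSK4 Mycl1 fell, -1.34 (SE 0.21, adjusted p = 0.00481), while Mxd4 was -0.57 (SE 0.18, adjusted p = 0.0643) and Mnt -0.40 (SE 0.18, adjusted p = 0.161), both called with slide as a block (adjusted p = 0.000556 and 0.00173). Mxi1 and Mxd1, which also pair with Max and oppose Myc, went the other way. With anti-CD40 they were 0.32 (adjusted p = 0.328) and 0.14 (adjusted p = 0.655), both called with slide as a block (adjusted p = 0.00142 and 0.0291). With anti-CD40+Pam2CSK4 Mxi1 was 0.62 (adjusted p = 0.0852), called with slide as a block (adjusted p = 0.000338), and Mxd1 was 0.19 (adjusted p = 0.574). Max itself was -0.36 (SE 0.16, adjusted p = 0.16) with anti-CD40, called with slide as a block (adjusted p = 0.0194). With TLR2.CD86 Mycl1 fell, -1.46 (SE 0.21, adjusted p = 0.012).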
